A study of Mus musculus and Ictidomys tridecemlineatus with 36 samples.

Results

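In the postnatal retina of the mouse and the 13-lined ground squirrel (13LGS), 1624 poised enhancers carried a Neurod1 peak, 1116 in mouse and 508 in 13LGS. A poised enhancer was taken here as an H3K4me1 peak that touched no H3K4me3 peak and no H3K27ac peak, and a member as a poised enhancer sharing at least 1 bp with a Neurod1 peak. The members were thus selected on the measured H3K4me1, H3K4me3, H3K27ac and Neurod1 peaks, and these values are given as a description. Among the 94101 poised enhancers of mouse, 1.19% were members, and among the 81375 of 13LGS, 0.624%. The H3K27ac lists that enter this rule differed in length, with 62930 peaks in mouse and 93999 in 13LGS. The members made up 1624 of the 532904 peaks in all lists of the series. Of the mouse members, 803 also overlapped an Otx2 peak and 313 did not, and of the 13LGS members, 275 did and 233 did not.

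The study used CUT&RUN, which releases and sequences the DNA around an antibody bound to a histone mark or a protein. Retinas were taken from P5 13LGS and P2 mice, and the labels give no genotype, strain or treatment. Per the study's methods, each biological replicate pooled the retinas of several animals. The labels hold 36 libraries, 16 of 13LGS and 20 of mouse, including IgG controls. The 10 peak lists used here pool all libraries of a target in a species: 1 library for each 13LGS histone mark, 2 for each mouse mark, 4 for Neurod1 in both species, and 6 (13LGS) or 8 (mouse) for Otx2, which was mapped with 2 antibodies. Because each list holds 1 value per peak, there was no spread between replicates and read depth is unknown, so the tests below take peaks as their units and describe the lists, not variation between animals.

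H3K4me1 marks enhancers in general, H3K27ac marks those that are active, and H3K4me3 marks active promoters, so an enhancer with H3K4me1 alone is read as present but not active in most cells of the sample. H3K27me3, which further divides such enhancers, was not analysed here. Neurod1 is a basic helix-loop-helix (bHLH) factor of differentiating neurons that binds E-boxes together with E proteins, and in the retina it acts in amacrine cells and photoreceptors. Otx2 is a homeodomain factor needed for photoreceptor and bipolar cell fate, and it binds the motif TAATCC, which its relative Crx also binds. A bulk retina mixes cell types and states, so an enhancer active in few cells and one active in none cannot be told apart here.

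Mouse members with high Neurod1 enrichment are shown first, since their sequences carry the motifs that the results below count. Each line gives 300 bases of GRCm38, plus strand, centered on the Neurod1 summit and named for the nearest protein-coding TSS, with matches on either strand to the E-box CAGATG, the E-box CAGCTG or the Otx2 motif TAATCC in capitals. The first 2 lie at members with Otx2, at chr17:15343281-15343580 (Dll1) and chr4:131060591-131060890 (Matn1). The other 3 lie at members without Otx2, at chr1:170655448-170655747 (Olfml2b), chr11:116286363-116286662 (Galr2) and chr8:127108046-127108345 (Pard3).
Dll1: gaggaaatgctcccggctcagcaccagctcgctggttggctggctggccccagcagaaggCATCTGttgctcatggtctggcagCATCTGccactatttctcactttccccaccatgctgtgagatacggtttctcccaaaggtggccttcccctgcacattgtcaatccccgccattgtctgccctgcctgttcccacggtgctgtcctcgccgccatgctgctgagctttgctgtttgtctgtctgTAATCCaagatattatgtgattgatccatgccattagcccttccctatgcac
Matn1: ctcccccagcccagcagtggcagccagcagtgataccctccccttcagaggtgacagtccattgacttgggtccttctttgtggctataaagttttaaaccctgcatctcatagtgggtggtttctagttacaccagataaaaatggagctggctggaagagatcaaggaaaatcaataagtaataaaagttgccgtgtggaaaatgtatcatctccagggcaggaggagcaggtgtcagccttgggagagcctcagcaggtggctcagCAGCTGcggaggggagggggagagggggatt
Olfml2b: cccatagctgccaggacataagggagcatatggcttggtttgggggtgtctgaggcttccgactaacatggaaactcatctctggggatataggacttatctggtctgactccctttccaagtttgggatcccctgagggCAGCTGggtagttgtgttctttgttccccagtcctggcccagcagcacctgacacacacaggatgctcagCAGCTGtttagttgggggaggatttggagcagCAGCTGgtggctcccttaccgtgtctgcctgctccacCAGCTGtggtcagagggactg
Galr2: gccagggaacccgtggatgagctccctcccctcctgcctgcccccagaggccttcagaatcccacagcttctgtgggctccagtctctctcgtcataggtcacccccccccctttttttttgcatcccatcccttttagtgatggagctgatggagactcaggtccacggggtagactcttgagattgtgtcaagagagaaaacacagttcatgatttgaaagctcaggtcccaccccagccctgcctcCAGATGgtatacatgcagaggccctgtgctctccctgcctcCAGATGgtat
Pard3: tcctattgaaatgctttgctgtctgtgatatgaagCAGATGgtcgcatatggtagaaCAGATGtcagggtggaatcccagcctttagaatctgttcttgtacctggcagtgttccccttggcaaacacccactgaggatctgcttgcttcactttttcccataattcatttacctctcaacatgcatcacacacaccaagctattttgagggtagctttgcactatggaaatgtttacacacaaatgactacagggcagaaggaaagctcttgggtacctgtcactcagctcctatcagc

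CAGATG, the E-box that Neurod1 and its relatives prefer, occurred in 3 of these 5 windows, and each of the 3 held it 2 times. In the window near *Dll1*, both copies lay on the minus strand, 87 and 63 bp before the summit, and the TAATCC motif lay 101 bp after it. Near *Galr2* the copies lay 102 and 143 bp after the summit, and near *Pard3* 112 and 90 bp before it. The *Olfml2b* window held no CAGATG but 4 copies of CAGCTG, an E-box with another center, at 7 bp before and 63, 95 and 132 bp after the summit. *Matn1* had 1 CAGCTG, 122 bp after the summit. TAATCC was found in 1 of the 2 windows with Otx2 and in none of the 3 without.

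The mouse member with the highest Neurod1 enrichment overall was the one nearest to *Dll1*, which encodes a Notch ligand of neurogenic progenitors. It covered chr17:15342462-15344573, 24872 bp from the TSS and outside any protein-coding gene, with a Neurod1 peak of 19.2-fold over IgG, an Otx2 peak of 7.80-fold and H3K4me1 of 15.0-fold. The Otx2 and Neurod1 summits were 50 bp apart, and the nearest H3K27ac peak was 18594 bp away. In an intron of *Lingo1*, which encodes a neuronal transmembrane protein, the member at chr9:56791831-56792381 had Neurod1 at 15.5-fold, and Otx2, with its summit on the same base, at 2.56-fold. An intron of the receptor tyrosine kinase gene *Alk* held a member at chr17:72075592-72077196 with Neurod1 at 15.3-fold, Otx2 at 7.38-fold and H3K4me1 at 16.3-fold.

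The member nearest to *Matn1*, a matrilin gene, met the rule only at its edge. Its H3K4me1 peak at chr4:131061012-131061246 was 235 bp wide, the Neurod1 summit (17.9-fold) lay 271 bp outside it, and the same Neurod1 peak also touched an H3K27ac peak. Such cases were few: the strongest Neurod1 summit was inside the H3K4me1 peak in 94.4% of mouse members and 93.1% of 13LGS members, and 13 of the 1138 distinct Neurod1 peaks at mouse members also touched H3K27ac or H3K4me3 (13LGS: 7 of 513).

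Without Otx2, the highest Neurod1 enrichment was at chr1:170655154-170658260, in an intron of *Olfml2b*, which encodes an olfactomedin domain protein, at 12.9-fold with H3K4me1 at 7.13-fold. The member in an intron of *Pard3*, a cell polarity gene, at chr8:127107260-127109036 had Neurod1 at 10.4-fold, and an intergenic member nearest to the kinase gene *Nuak1* at chr10:84357497-84358843 had 7.94-fold. The member nearest to the galanin receptor gene *Galr2* at chr11:116285646-116286109 (12.1-fold) and the one nearest to *Klhdc7a* at chr4:140052716-140053043 (10.3-fold), whose summit was in an intron of *Igsf21*, lacked Otx2 only inside the H3K4me1 peak. Their Neurod1 summits lay 404 and 384 bp outside it, and their Neurod1 peaks touched an Otx2 peak there. In mouse, 5 of the 313 members without Otx2 were of this kind, and in 13LGS 0 of 233, which allows a share of up to 1.29%.

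In 13LGS, the strongest member was at Itri2:155791883-155794024 on the HiC_Itri_2 assembly, with Neurod1 at 14.1-fold, Otx2 at 4.33-fold and summits 15 bp apart, and an H3K27ac peak began 297 bp from it. The next members with Otx2, at Itri5:160415872-160417275, Itri2:189262010-189263473, Itri13:39650826-39653409 and Itri3:11458313-11461246, had Neurod1 between 9.10- and 9.75-fold. Their Otx2 values ranged more widely, from 2.19-fold on Itri3 to 8.72-fold on Itri5. Among 13LGS members without Otx2, the highest Neurod1 value, 8.75-fold, belonged to 1 Neurod1 peak that bridged 2 neighboring H3K4me1 peaks at Itri5:190916659-190917151 and Itri5:190917363-190917881. The next, 7.11-fold, likewise bridged Itri1:22821233-22821864 and Itri1:22822080-22822527. Sharing of this kind involved 14 mouse members and 6 13LGS members in all. 13LGS members are given by position only, since no gene annotation of that assembly was used here.

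Most members had modest Neurod1 enrichment. In mouse it ranged from 1.91- to 19.2-fold, with a median of 4.04-fold at members with Otx2 and 3.65-fold at members without, and in 13LGS it ranged from 1.70- to 14.1-fold, with medians of 3.61- and 3.44-fold. Members without Otx2 reached from 2.24- to 12.9-fold in mouse and from 2.29- to 8.75-fold in 13LGS, so that both the lowest and the highest values of each species lay in the subset with Otx2. For all Neurod1 peaks the medians were 3.78-fold (mouse) and 3.51-fold (13LGS), and for those at active enhancers, H3K27ac peaks without H3K4me3, 4.32- and 3.89-fold. H3K4me1 was also higher where Otx2 was present, at a median of 6.35-fold against 4.72-fold in mouse and 4.71-fold against 3.85-fold in 13LGS, beside 3.82- and 3.39-fold over all poised enhancers and 5.88- and 4.99-fold over poised enhancers with Otx2 and no Neurod1. Across all members, the fold enrichments of Neurod1 and H3K4me1 were almost unrelated (Spearman's rho 0.0793 over 1116 mouse members and 0.0302 over 508 13LGS members). Those of Neurod1 and Otx2 were weakly related (0.229 over 803 members and 0.132 over 275). The points of each correlation come from the same pooled libraries and share their IgG control.

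**Figure D1:**
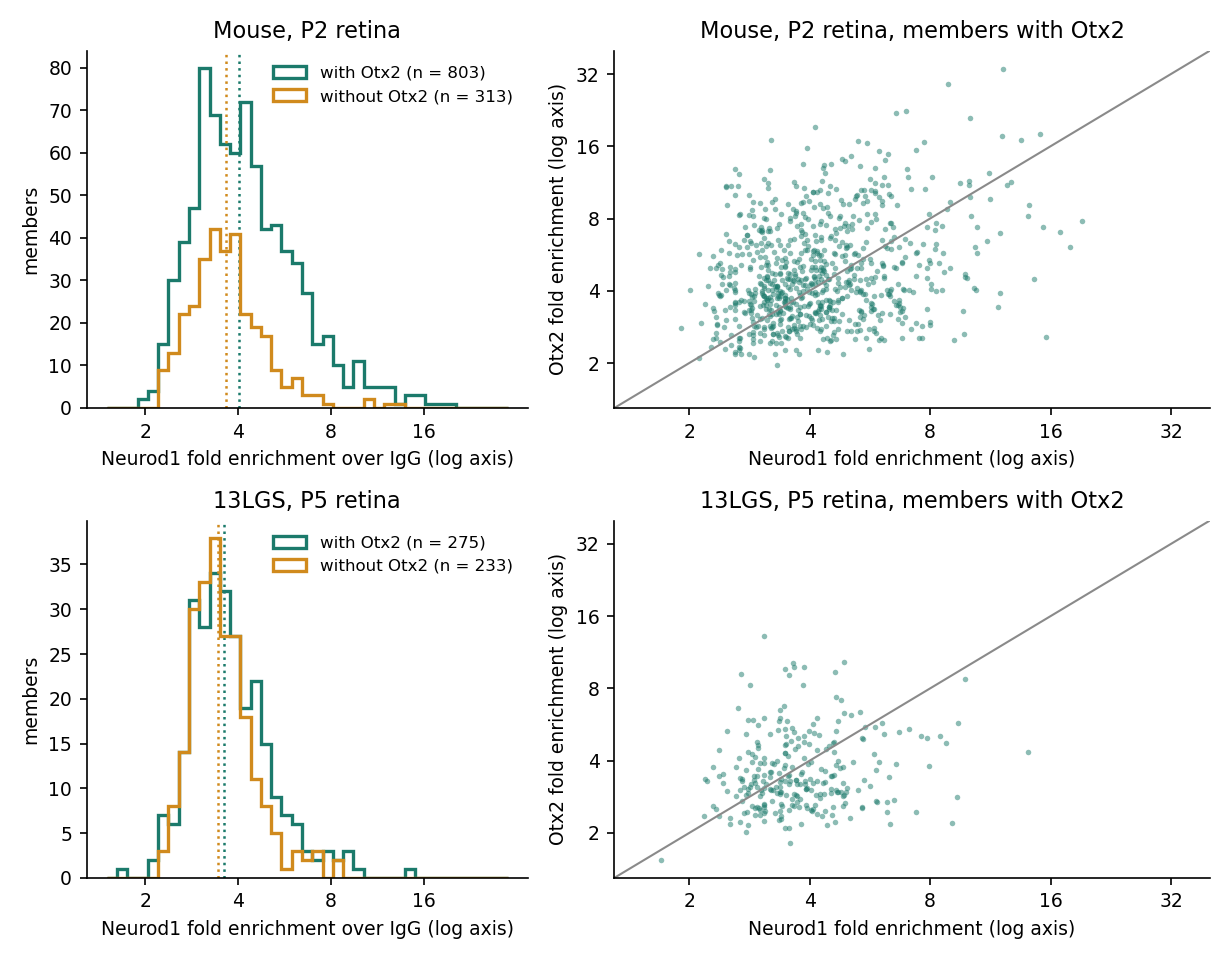
Left, number of members by Neurod1 fold enrichment over IgG (log axis) with Otx2 (green) and without (orange), with dotted lines at the medians. Right, Otx2 against Neurod1 fold enrichment at each member with Otx2 (log axes, gray line at equal values): Otx2 was above Neurod1 at 57.5% of mouse members and 42.5% of 13LGS members. The folds come from different antibodies and libraries, so they do not rank one factor above the other.

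The median width of members was 1885 bp with Otx2 and 1014 bp without in mouse, and 1471 and 1048 bp in 13LGS, against 611 and 555 bp for all poised enhancers. Poised enhancers with Otx2 and no Neurod1 were of similar width, at a median of 1433 bp in mouse and 1231 bp in 13LGS, beside 1585.5 and 1232 bp for all members. The share of poised enhancers that were members rose with width, from 0.325% of mouse peaks under 500 bp to 4.65% of those of 2000 bp or more, and from 0.219% to 2.95% in 13LGS. A wider peak has more room for an overlap, and the part of width in these shares was not tested. At the 1 bp limit, 7 members in mouse and 3 in 13LGS shared under 50 bp with their Neurod1 peak, and 9 poised enhancers in each species missed one by under 50 bp. When every overlap needed at least 250 bp, members numbered 840 in mouse and 312 in 13LGS. The closest case inside was chr1:180196274-180196533, which shared 6 bp with a Neurod1 peak of 2.91-fold, and the closest outside was chr4:139591562-139591885, at 5 bp from one.

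The members took up 24.0% of all Neurod1 peaks in mouse (1138 of 4744) and 11.0% in 13LGS (513 of 4658), while 39.5% and 51.0% lay at active enhancers. The H3K27ac lists, whose peaks the rule excludes, held 62930 peaks in mouse and 93999 in 13LGS. With equal numbers of peaks per target, members numbered 1099 in mouse and 706 in 13LGS. The part of list size in these shares was not tested. The median distance to the nearest H3K27ac peak was 26980.5 bp for mouse members, 18937 bp for all poised enhancers and 29330 bp for poised enhancers with Otx2 alone, and in 13LGS it was 17279.5, 10172 and 19395 bp. An H3K27ac peak lay within 1 kb of 2.69% of mouse members (30 of 1116) and 6.69% of 13LGS members (34 of 508), and within 1 kb of 6.06% and 10.1% of all poised enhancers. By these medians members sat farther from H3K27ac than poised enhancers at large. Members with Otx2, at 29798 bp in mouse and 19102 bp in 13LGS, were near poised enhancers with Otx2 alone. Members without Otx2 stood at 21831 and 15211 bp, beside 18194 and 9841.5 bp for poised enhancers with neither factor. The distances were not tested. Another member lay within 10 kb of 9.95% of mouse members and 7.28% of 13LGS members.

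**Figure D2:**
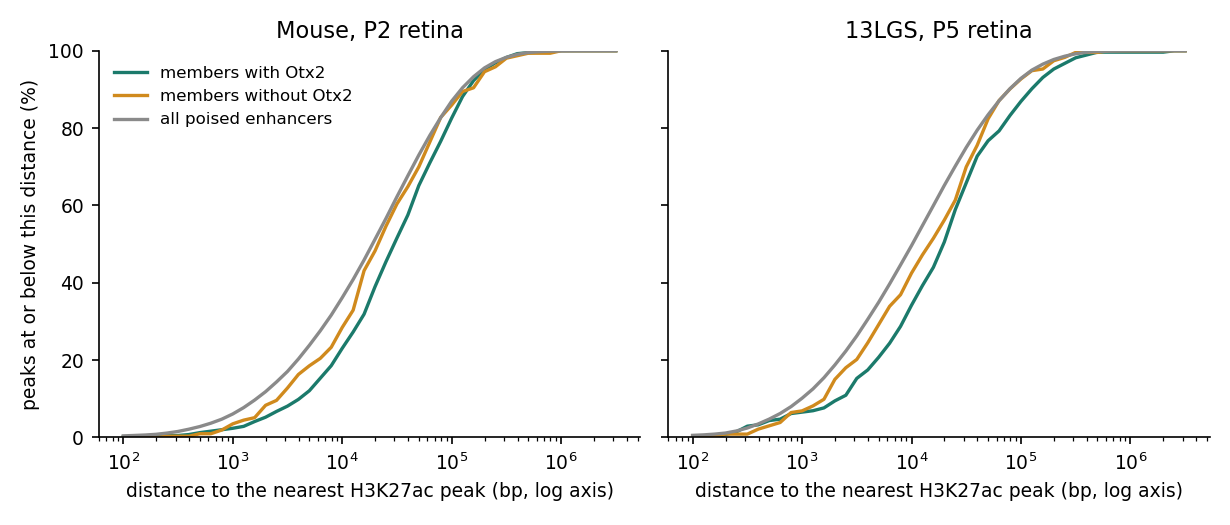
Share of peaks (y axis, %) whose nearest H3K27ac peak was at or below the distance on the x axis (bp, log axis), for members with Otx2 (green), members without (orange) and all poised enhancers (gray). In both species the curve of members with Otx2 lay to the right of that of all poised enhancers over most of its course, with medians over all members of 26980.5 bp (mouse) and 17279.5 bp (13LGS).

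Whether Otx2 accompanied Neurod1 at poised enhancers was compared between species and with active enhancers. Otx2 overlapped 72.0% of mouse members (803 of 1116, 95% Wilson interval 69.2 to 74.5%) and 54.1% of 13LGS members (275 of 508, 49.8 to 58.4%), where it overlapped 6.98% of all poised enhancers in mouse and 4.10% in 13LGS. The species differed by 17.8 points (Fisher's exact test, two-sided, Benjamini-Hochberg adjusted over 3 tests, adjusted p = 3.76e-12). Age and library numbers differed along with species. The Otx2 antibody of Atlas Antibodies was used on all biological replicates in mouse but not in 13LGS. The parts of these in the difference cannot be told apart. Active enhancers with Neurod1 carried Otx2 more often than members did, at 87.6% in mouse (1631 of 1862) and 71.6% in 13LGS (1657 of 2314). The members' share was thus 15.6 points lower in mouse (exact test, adjusted p = 2.19e-25) and 17.5 points lower in 13LGS (adjusted p = 1.05e-13, same test), while the median width of active enhancers with Neurod1 was 1253 bp in mouse and 1468.5 bp in 13LGS, beside 1585.5 and 1232 bp for members. Mouse also had the higher share at active enhancers with Neurod1, so the species difference was not particular to members. The intervals cover counting error only.

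**Figure D3:**
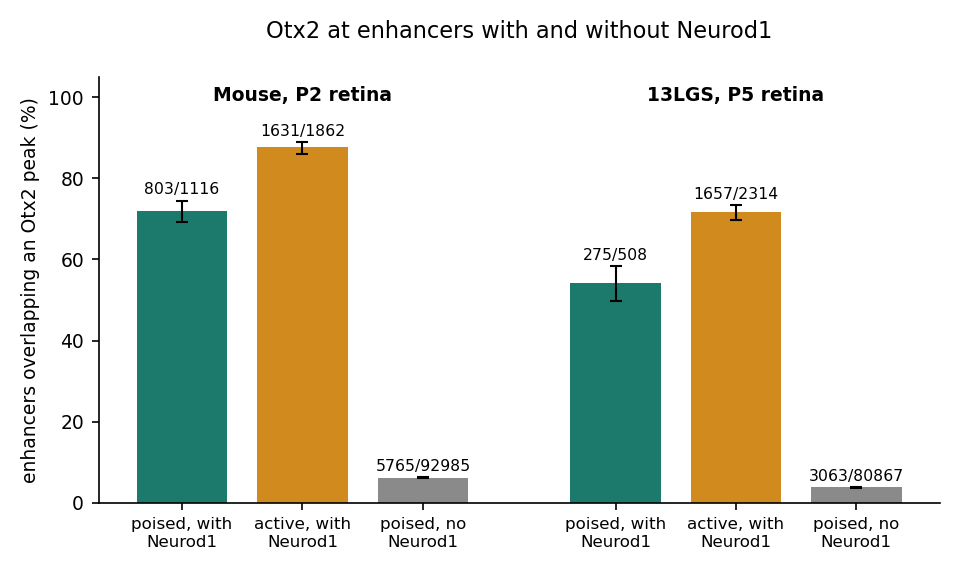
Share of enhancers that overlapped an Otx2 peak (y axis, %) for members (green), active enhancers with Neurod1 (orange) and poised enhancers without Neurod1 (gray), with 95% Wilson intervals and counts above the bars. In each species the active enhancers with Neurod1 had the highest share, 87.6% in mouse and 71.6% in 13LGS, and poised enhancers without Neurod1 the lowest, 6.20% and 3.79%.

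In every band of peak width, Otx2 was more frequent at members than at poised enhancers without Neurod1. Among mouse members under 500 bp wide, 57.0% had Otx2, against 2.43% of poised enhancers of that width without Neurod1, and among members of 2000 bp or more it was 85.8% against 21.8%. In 13LGS the same shares were 37.5% against 1.58%, and 69.7% against 18.6%. Read the other way, 12.2% of mouse poised enhancers with Otx2 were members and 0.358% of those without, and 8.24% and 0.299% in 13LGS. The mouse share exceeded the 13LGS share in each width band, from 500 to 1000 bp (52.2% against 46.7%) and from 1000 to 2000 bp (71.7% against 54.2%) as well. The bands were not tested separately, and as Neurod1 defines the members, their contrast with poised enhancers lacking it is a description.

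Where both factors were called, their peaks mostly coincided. In mouse, the Neurod1 peak itself touched an Otx2 peak at 789 of 803 members with Otx2, and in 13LGS at 260 of 275. The summits were a median of 65 bp apart in mouse and 79 bp apart in 13LGS, and within 100 bp at 64.4% (517 of 803) and 57.1% (157 of 275) of members. Otx2 enrichment at these members had a median of 4.42-fold in mouse and 3.30-fold in 13LGS.

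The sequence around the Neurod1 summits of mouse members was searched for 3 E-boxes and the Otx2 motif, on both strands and within 250 bp on each side. Members that share a Neurod1 peak share this window. CAGATG occurred at 80.7% of members and CAGCTG at 59.1%, while windows of the same length 2000 bp to either side held them in 35.3% and 23.7% of cases. CACGTG, the E-box of bHLH-zipper factors such as Myc, differed little, at 10.4% against 7.39%. TAATCC was found at 28.9%, and at 17.2% of the windows to the side. Median GC content was 52.3% at the summits and 47.5% to the side, and its part in these shares was not tested. Neurod1 peaks at active enhancers held CAGATG at 77.2% and CAGCTG at 59.2%, and all Neurod1 peaks at 70.3% and 57.3%. In the 300 bases used for the sequences above, CAGATG occurred at 62.0% of members, and at 17.2% of 32851 RefSeq promoter windows (GRCm38) of that length. Promoter windows lie at a TSS, unlike most members, so they are not a matched background.

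Members with and without Otx2 differed in these motifs. TAATCC was found at 35.2% of members with Otx2 (283 of 803) and 12.5% of those without (39 of 313), a difference of 22.8 points (two-sided Fisher's exact test, Benjamini-Hochberg adjusted over 4 motifs, adjusted p = 1.10e-14). The share without Otx2 was below that of the windows to its side, 15.7%. CAGATG was the reverse, at 79.0% of members with Otx2 and 85.3% of those without, 6.35 points apart (adjusted p = 0.0356, same exact test). CAGCTG occurred at 57.2% and 63.9% (adjusted p = 0.0562) and CACGTG at 11.0% and 8.95% (adjusted p = 0.382, same exact test), and neither difference passed the threshold of 0.05. The CAGATG difference did not pass when the whole Neurod1 peak was searched (62.6% against 64.9%, adjusted p = 0.534, Fisher's exact test) or when windows were centered on the peak's midpoint (adjusted p = 0.0524, Fisher's exact test).

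E-boxes often came in numbers at members, the only peaks for which this was counted, so other Neurod1 peaks may be alike. Counting CAGATG and CAGCTG together, 466 of 1116 mouse members (41.8%) held 3 or more within 250 bp of the summit, 346 held 2, 249 held 1 and 55 (4.93%) held none. Members without Otx2 held 3 or more at 55.9% (Wilson interval 50.4 to 61.3%) and members with Otx2 at 36.2% (33.0 to 39.6%), a difference that was not tested. The median Neurod1 enrichment was 3.47-fold at members with none, 3.74-fold at members with 1 or 2, and 4.11-fold at members with 3 or more. Only 29 members (2.60%) held neither of these E-boxes nor TAATCC.

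The bases beside CAGATG were uneven too. Read on the strand that spells CAGATG, the next base was G at 57.3% of the 1560 copies near member summits and at 31.0% of the 1006 copies in the windows to the side, as in CAGATGG. The base before it was T at 7.95% of copies, and at 20.9% to the side. At active enhancers with Neurod1 the same shares were 61.3% and 8.16%, close to those of members. CAGCTG showed a weaker form of this, with T before it at 10.5% of copies near summits and 20.5% to the side.

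The motifs were most frequent not at the deposited summit but beside it. Per the study's methods, MACS2 was run in its paired-end (BAMPE) mode, which piles up whole fragments rather than cut ends. The cause of the offset was not tested, and it bears on every window and distance measured from the summit. Counting both sides, 146 CAGATG copies lay within 50 bp of the summits of mouse members, 460 between 100 and 150 bp and 102 between 450 and 500 bp. CAGCTG followed the same course (118, 306 and 73) and so did TAATCC (39, 104 and 49), while CACGTG was nearly flat (22, 28 and 23). Measured from the midpoint of the Neurod1 peak instead, CAGATG was most frequent at the center, with 403, 336 and 95 copies in the same bands. All 4744 mouse Neurod1 peaks had the same profile (507, 1668 and 406 copies of CAGATG around the summit), so poised enhancers did not stand apart in it.

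**Figure D4:**
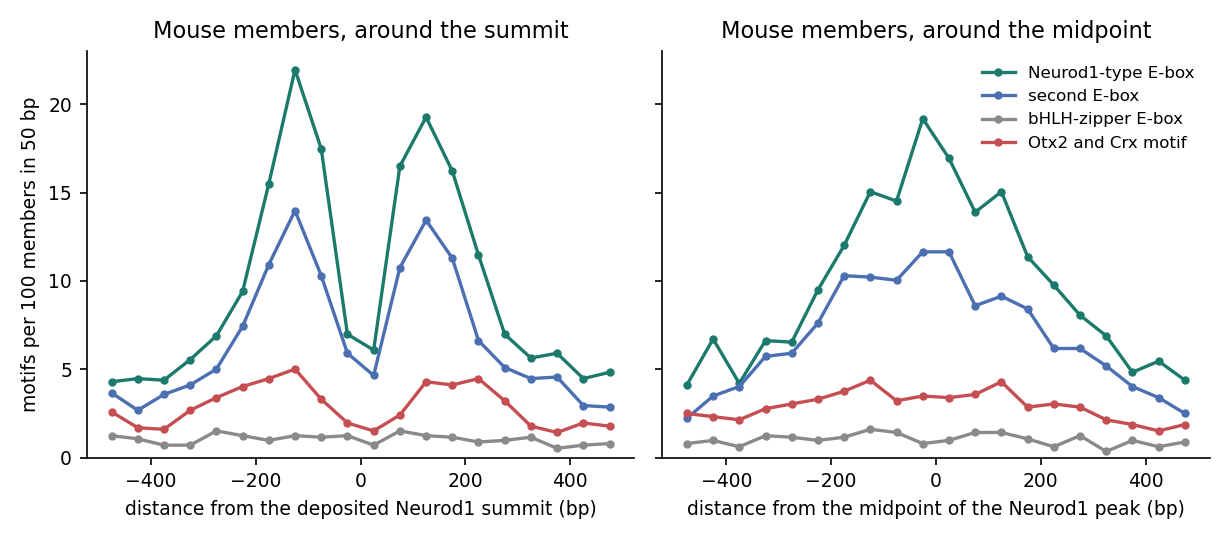
Motif copies per 100 mouse members in bins of 50 bp (y axis) by distance from the deposited Neurod1 summit (left) or the midpoint of the Neurod1 peak (right), in bp. Green is CAGATG, blue CAGCTG, gray CACGTG and red TAATCC: both leading E-boxes had a dip at the summit, with 146 copies of CAGATG within 50 bp against 460 at 100 to 150 bp, and peaked at the midpoint.

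Mouse members were mostly distal. A TSS of a protein-coding gene lay within 1 kb of 7.35% of members (82 of 1116), 11.3% of poised enhancers with Otx2 alone (650 of 5765; two-sided Fisher's exact test, Benjamini-Hochberg adjusted over 4 tests, adjusted p = 0.000133) and 5.75% of those with neither factor (5016 of 87220, adjusted p = 0.0278). Members were inside a protein-coding gene at 48.8% (545 of 1116), more often than poised enhancers with Otx2 alone (44.5%, adjusted p = 0.0115) and less often than those with neither factor (55.6%, adjusted p = 2.46e-05, same exact test). The subsets had different shares: members with Otx2 were inside a gene at 46.5% and members without at 55.0%, each near the share of the poised enhancers that match it in Otx2, and the subsets were not tested separately. Within 1 kb of a TSS the subsets stood at 7.47% and 7.03%. The median distance to a TSS was 20952 bp, against 24519 bp with Otx2 alone and 30267 bp with neither. Both TSS contrasts lost their call in 1 setting: against Otx2 alone when the limit was 5 kb (adjusted p = 0.387) and against neither factor when the H3K4me1 summit was placed instead of the midpoint (adjusted p = 0.139, Fisher's exact tests). Members were unevenly spread over chromosomes, from 2.46% of the poised enhancers of chromosome 11 and 2.10% of chromosome 4 to 0.438% of the X chromosome.

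The 1116 mouse members lay nearest to 912 protein-coding genes, 4.16% of the 21924 annotated. Of these genes, 131 had 2 or more members and 17 had 4 or more. The 10 genes named below differ in length, from 3808 bp for *Rpl38* to 1106012 bp for *Auts2*. Their counts are not set against the poised enhancers around each gene, of which 1.19% were members over all genes. Over all mouse members, 72.0% carried Otx2. *Gse1*, which encodes a chromatin-associated coiled-coil protein, had the most, with 10 members spread over 352205 bp, 9 of them inside its own introns and 8 with Otx2. Their Neurod1 enrichment ran from 3.22-fold to 12.5-fold, with a median of 4.36-fold. *Tle3*, a Groucho family corepressor, had 7 members, all with Otx2, between 2.29- and 5.65-fold. None had its Neurod1 summit in an intron of *Tle3*, but the member at chr9:61401779-61406931 had it in a non-coding exon of the gene. *Slc39a11*, a zinc transporter gene, also had 7, of which 3 carried Otx2, with values up to 8.57-fold. Its members closest to the TSS were 2 neighboring H3K4me1 peaks under 1 Neurod1 peak of 5.14-fold, with the summit in an intron of *Cog1*.

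Among the genes with 6 members, *Grm4*, a metabotropic glutamate receptor gene, had Neurod1 values between 2.35- and 8.65-fold, and 5 of its members carried Otx2. All 6 members of *Auts2*, a neurodevelopmental gene, lay in its introns, 3 with Otx2, between 2.43- and 5.55-fold. *Tcf20*, a transcriptional coregulator gene, had 6 members packed into 52224 bp with uniformly low values, 2.86- to 3.95-fold. *Rbfox3*, which encodes the neuronal splicing factor NeuN, held 5 members in its introns, from 2.11- to 9.89-fold. *Rpl38* and the ciliary gene *Nphp4* had 5 each, and all those of *Rpl38* lay between protein-coding genes, at 31977 to 263965 bp from its TSS. *Rybp*, a Polycomb component gene, had 4 members outside protein-coding genes, with Neurod1 up to 14.5-fold.

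Genes of the 6 lists of retinal and neuronal genes were more often nearest to a member, at any distance, than protein-coding genes at large (4.16%), and they also had more poised enhancers around them. Of 48 photoreceptor genes, 6 (12.5%) had a member, of 20 bipolar cell genes 5 (25%), of 34 progenitor and neurogenic factors 6 (17.6%), of 32 amacrine, horizontal and ganglion cell genes 10 (31.2%), of 13 Muller glia genes 4 (30.8%) and of 64 axon guidance and adhesion genes 18 (28.1%). The median number of poised enhancers per gene was 1 over all genes, and from 3 for photoreceptor genes to 46 for axon guidance and adhesion genes. Counted per poised enhancer, members made up 2.15% around photoreceptor genes, 2.26% around bipolar cell genes, 2.11% around amacrine, horizontal and ganglion cell genes and 2.58% around Muller glia genes, above the 1.19% of all poised enhancers. Around progenitor and neurogenic factors the share was 1.01% and around axon guidance and adhesion genes 0.764%, below it. When genes were instead counted by a member within the gene body or 10 kb of it, the share over all genes was 3.42% and the lists fell to 10.4% (photoreceptor), 15.0% (bipolar), 15.6% (amacrine, horizontal and ganglion), 7.69% (Muller glia) and 23.4% (axon guidance and adhesion), while progenitor and neurogenic factors, with 1 gene of 34, fell to 2.94%, below all genes. These counts are small, from 4 to 27 members a list, and no list was tested. None of 14 marker genes of microglia, endothelium and pigment epithelium had a member, among 120 poised enhancers, which allows a share of up to 2.5%.

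**Figure D5:**
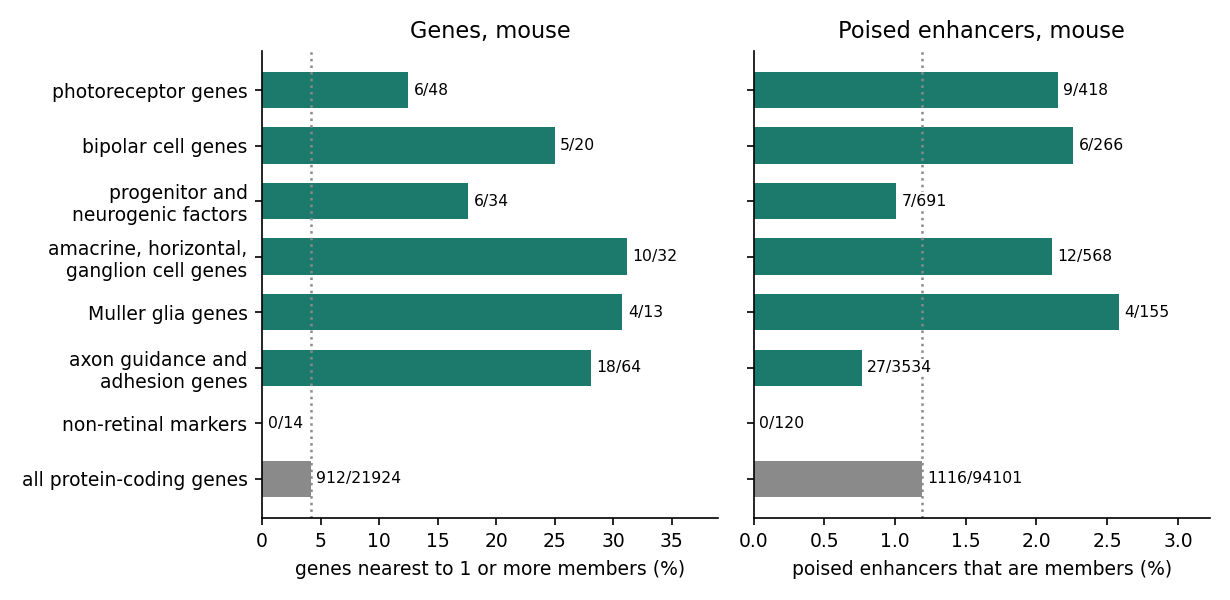
Left, share of the genes of each list that were nearest to 1 or more mouse members (x axis, %), with counts. Right, share of the poised enhancers nearest to those genes that were members (x axis, %), with counts, where gray bars and dotted lines give all protein-coding genes, 4.16% and 1.19%: axon guidance and adhesion genes were high on the left (28.1%) and below the line on the right (0.764%).

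Of the photoreceptor genes, *Thrb*, a thyroid hormone receptor gene known for its part in cone opsin choice, held the strongest member in an intron at chr14:17988335-17991569, with Neurod1 at 7.03-fold, Otx2 at 11.9-fold and H3K4me1 at 8.62-fold. *Otx2* itself had 2 neighboring members beyond the 3′ end of its gene, at chr14:48651192-48652535 and chr14:48654704-48657182, with Neurod1 at 3.23- and 3.18-fold and Otx2 at 4.26- and 3.75-fold. The cone phosphodiesterase gene *Pde6c* had an intronic member (3.07-fold), and the cone transducin gene *Gngt2* had one 163 bp from its TSS, its Neurod1 summit in the gene's UTR (4.14-fold, Otx2 5.30-fold). A member without Otx2 in an intron of *Pex14* was nearest to *Casz1*, 49463 bp from its TSS (3.04-fold). *Sall3* was the nearest gene to 3 members between 3.37- and 4.03-fold, of which 1 carried Otx2. They lay 27692, 265628 and 458937 bp from its TSS.

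All 6 members near bipolar cell genes carried Otx2, beside 803 of 1116 (72.0%) over all mouse members. This difference was not tested. Nearest to *Irx6*, members at chr8:92544378-92547130 and chr8:92681182-92682587 lay 128534 and 7059 bp from its TSS. They had Neurod1 at 3.18- and 4.30-fold and Otx2 at 12.8- and 11.5-fold. The folds of the 2 factors come from different antibodies and libraries, so they do not rank one factor above the other. The member nearest to *Isl1*, 205390 bp from its TSS, had Neurod1 at 4.43-fold and Otx2 at 8.95-fold. In an intron of *Trpm1*, the transduction channel gene of ON bipolar cells, the values were 4.13- and 4.48-fold. The member in an intron of the LIM homeodomain gene *Lhx4* had Neurod1 at 3.37-fold and Otx2 at 3.81-fold. The member nearest to its relative *Lhx3* had Neurod1 at 5.62-fold and Otx2 at 2.29-fold.

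Among the progenitor and neurogenic factors, *Dll1* stood far above the others, at 19.2-fold. The next was *Sox9*, a progenitor and glial factor, whose member 191563 bp from the TSS had Neurod1 at 6.70-fold and Otx2 at 6.08-fold. *Pax6*, the eye field factor, had a member without Otx2 at 3.94-fold, and members with Otx2 were nearest to *Sox2* (3.93-fold), *Six3* (2.74-fold) and the bHLH gene *Olig2* (2.81- and 2.60-fold). Among the amacrine, horizontal and ganglion cell genes, *Ebf2*, which encodes an early B cell factor protein, had members of 6.57- and 4.44-fold with Otx2 at 22.0- and 10.2-fold. *Ebf1* had one of 5.89-fold with Otx2 at 4.82-fold and one of 2.33-fold without. The bHLH genes *Neurod2* (5.34-fold, Otx2 2.75-fold) and *Neurod6* (3.79-fold, no Otx2) each had 1. Members without Otx2 were also nearest to *Prox1* (4.06-fold), *Lhx1* (3.71-fold) and *Isl2* (2.31-fold). The one nearest to *Isl2* lay in an intron of *Scaper*, and its Neurod1 peak had a −log10 q of 1.43. Members with Otx2 were nearest to *Rbpms* (4.60-fold), *Slc6a9* (3.44-fold) and *Nefl* (3.12-fold).

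In Muller glia genes, the member nearest to *Id1*, an inhibitor of bHLH factors, had Neurod1 at 6.15-fold without Otx2. Members with Otx2 were nearest to its relative *Id2* (2.11-fold, 235429 bp from the TSS), to *Rlbp1* (3.47-fold, 50126 bp) and to *Clu* (2.29-fold, 74 bp). The one nearest to *Rlbp1* lay in an intron of *Abhd2*. The Neurod1 peak nearest to *Id2* was close to the authors' threshold, at a −log10 q of 1.36. Of the 27 members near axon guidance and adhesion genes, 20 carried Otx2, beside 803 of 1116 (72.0%) over all mouse members. The cadherin gene *Cdh4* had 4, all with Otx2, of which the one at chr2:179852329-179857560, in an intron, had Neurod1 at 14.1-fold while the others lay between 3.58- and 4.11-fold. An intron of *Robo2*, a Slit receptor gene, held a member of 8.97-fold with Otx2 at 9.38-fold. The gene of its ligand *Slit1* had 3 intronic members with similar values, 5.80-, 6.37- and 6.83-fold, all with Otx2.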

How the data were processed

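The deposited peak lists came from CUT&RUN of P5 13LGS and P2 mouse retina. Per the study's methods and the submitters' processing notes, the authors trimmed reads with cutadapt 3.5 and Trim Galore 0.6.4, aligned them with Bowtie2 to GRCm38 (mouse) or HiC_Itri_2 (13LGS), filtered them with SAMtools 1.12, removed duplicates with UMI-tools without molecular identifiers, merged technical replicates and ran MACS2 against IgG, jointly across the libraries of a target, at a q-value of 0.05. MACS2 was run in its paired-end (BAMPE) mode. The fold enrichment deposited by the authors is a ratio of the pooled signal over IgG at the peak summit. The −log10 p-value and −log10 q-value of each peak were also deposited by the authors. Neither was rescaled, and only the fold, the −log10 q-value and the summit position were used. A pooled list gives no replicate spread and no depth, so 2 peaks of different fold cannot be compared with an error. A missing peak means that none passed the authors' threshold.

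Python 3.11.15 was used throughout (pandas 2.3.3, numpy 2.4.6, pysam 0.24.0 for sequences, scipy 1.17.1 for tests, matplotlib 3.10.9 for plots). On simulated intervals, overlaps matched those of bedtools 2.31.1. Overlap meant at least 1 bp shared, and a member's Neurod1 and Otx2 values are those of the strongest peak overlapping it. Fisher's exact test, two-sided, was used for shares, and p-values were adjusted by the Benjamini-Hochberg method within 3 Otx2 tests, 4 motif tests and 4 position tests, at a threshold of 0.05, and Wilson intervals are at 95%. Mouse genes came from GENCODE release M21 on GRCm38. Members were placed by the H3K4me1 midpoint at the nearest protein-coding TSS. Positions count from 1.

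Named are the 5 members of each subset with the highest Neurod1 fold, genes of 7 lists that are nearest to a member, and the 10 genes nearest to most members. Sequences are those of the first 3 mouse members of each subset, 1 member with Otx2 is not reported here, and genes with equal counts were ordered by Neurod1 fold. The members, lists and tests were chosen with earlier results of these data known. Alternatives were an overlap of 250 bp, summits inside, a −log10 q of at least 5, a fold of at least 2.5, marks at least 1 kb away, Neurod1 peaks under other marks left out, H3K4me1 peaks within 500 bp merged, equal peak numbers per target, chromosomes only, distinct Neurod1 peaks, other motif windows, other placements and genes counted by body with 10 kb on each side. A window around the peak midpoint was chosen after seeing the data. No 13LGS genome was used here, so motifs, genes and sequences are for mouse only.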

Additional observations from a re-analysis of the deposited data

How the results depend on the processing

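Of 75 alternative values, 68 kept their direction and their side of the threshold, or stayed within 1.5 times the count. The 3 Otx2 comparisons kept both under every alternative run, 10 between species and 18 against active enhancers. Leaving out Neurod1 peaks under other marks gave no comparison with active enhancers, by construction. The chromosomes-only setting is counted among the alternatives but repeated the main values, since no member lay off the chromosomes. With at least 250 bp shared, 13LGS members fell to 312, while equal numbers of peaks per target gave 706 and a fold of at least 2.5 gave 561. For CAGATG, the difference between members with and without Otx2 was −2.22 points over the whole Neurod1 peak (adjusted p = 0.534, Fisher's exact test) and −6.12 points around the peak midpoint (adjusted p = 0.0524, exact test). For CAGCTG it turned to 2.26 points over the whole peak (adjusted p = 0.534, exact test) and was −10.4 points with a −log10 q of at least 5 (adjusted p = 0.00311, exact test). The difference in the share near a TSS was −1.19 points against Otx2 alone within 5 kb (adjusted p = 0.387, exact test) and 1.07 points against neither factor with the H3K4me1 summit placed (adjusted p = 0.139, exact test). The cause of these changes was not tested. Genes counted by body with 10 kb on each side numbered 750, and this moved the share of progenitor and neurogenic factors from 17.6% to 2.94% and that of Muller glia genes from 30.8% to 7.69%. No paired analysis was possible because each list pools the libraries of its target, and no replicate could be left out for the same reason. Peak calls limit what is seen at low enrichment, since depth is unknown.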
